A study of Homo sapiens with 12 samples.

Results

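The genes described here were lower with interleukin-1β (IL-1β) and higher with empagliflozin (Empa) than in the untreated control on every slide of a microarray experiment in human proximal tubular cells. They were chosen by these values: the IL-1β array had to lie more than 0.1 log2 units below the control array, and the Empa array more than 0.1 above it, on each of 4 slides. Of 33483 probes, 171 met the rule, which is 0.511% of them. They stand for 168 of 25622 genes or transcripts on the array. A gene symbol was given for 160 of the probes and no symbol for 11.

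HK-2 and RPTEC/TERT1 are both immortalized human proximal tubular epithelial lines, HK-2 by papillomavirus genes and RPTEC/TERT1 by telomerase. Confluent cultures were deprived of serum and supplements, given fresh medium, and left as controls, treated with 10 ng/ml IL-1β, or treated with 500 nM Empa, each for 24 h at normal glucose. Each of the 6 groups had 2 biological replicates, hence 12 one-colour arrays, and no array held cells given both agents. Each slide held the control, the IL-1β and the Empa array of 1 line and 1 replicate. The control lay in the first, IL-1β in the second and Empa in the third array position of every slide, so position and treatment cannot be told apart in any value below.

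IL-1β is an inflammatory cytokine that acts through its receptor on NF-κB and stress kinases, and tubular cells answer it with chemokines and other inflammatory mediators. Empa blocks SGLT2, the sodium-glucose cotransporter of the proximal tubule. Both differences on a slide were taken against the same control array. An error in that control value therefore shifts both of them in the same direction, while the rule asks for opposite signs. Such an error favours either condition of the rule only at the expense of the other.

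A level below is log2 of the scanner signal relative to the 75th percentile of its array, so that 0 is the 75th percentile, and a difference is a treated level minus the control level of the same slide. Arrays were not far apart in quality: between 52.7% and 63.1% of probes were well above background, and the 75th percentile ranged from 298 to 765 signal units. Of 14 proximal tubule markers, 7 passed the background mark on every array, among them SLC5A2 (SGLT2 itself), LRP2, AQP1 and PAX8, while SLC22A6, HNF4A and VIL1 were on none. Of 14 markers of other cells, PTPRC, CD68 and CDH5 passed it on every array, and none of the 28 markers was a member. The control arrays labelled HK-2 1 and RPTEC/TERT1 2 had a correlation of 0.984 across bright probes (well above background on every array), and those labelled HK-2 2 and RPTEC/TERT1 1 one of 0.973. Between replicates of the same line it was 0.880 and 0.875. The control profiles thus went against the line labels. Lines are named below as the sample titles name them, and the assignment of arrays to lines rests on these titles alone. RNA of a whole culture was measured, so fewer cells that express a gene and less RNA per cell cannot be told apart.

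Sequences are shown for the members that can be read directly off the array or off a promoter. FER1L4, a transcribed pseudogene that makes a long noncoding RNA, had the largest smallest difference among members well above background on all 12 arrays. Its probe lies at hg19 chr20:34146520-34146579 on the minus strand, and is printed in the sense of the transcript.
FER1L4: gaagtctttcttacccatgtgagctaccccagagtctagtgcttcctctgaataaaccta

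NDUFA6-AS1, an antisense transcript beside a gene for a subunit of respiratory complex I, was a member through 2 probes, at hg19 chr22:42520486-42520545 and chr22:42520497-42520556, both on the plus strand. Capitals mark the 49 bases that both probes hold, so the pair is nearly 1 measurement.
NDUFA6-AS1 probe 1: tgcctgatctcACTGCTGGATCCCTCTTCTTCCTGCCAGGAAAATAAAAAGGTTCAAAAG
NDUFA6-AS1 probe 2: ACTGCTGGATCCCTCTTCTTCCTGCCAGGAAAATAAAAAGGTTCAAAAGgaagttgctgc

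The 250 bases before the RefSeq start (build GRCh38.p14, plus strand, 5′ to 3′) are shown for 3 members whose inducible promoters are well studied, EGR1, FOS and ARRDC4. In EGR1 (chr5:138465229-138465478) capitals mark serum response elements (CArG boxes) and the cAMP response element core TGACG, read on either strand. In FOS (chr14:75278578-75278827) they mark TGACG, and in ARRDC4 (chr15:97960453-97960702) the E-box CACGTG.
EGR1: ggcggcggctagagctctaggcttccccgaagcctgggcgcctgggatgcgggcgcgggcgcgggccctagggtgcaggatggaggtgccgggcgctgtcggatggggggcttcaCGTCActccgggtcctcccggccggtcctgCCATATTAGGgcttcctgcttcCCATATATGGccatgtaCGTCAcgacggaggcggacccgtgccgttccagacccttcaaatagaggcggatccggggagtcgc
FOS: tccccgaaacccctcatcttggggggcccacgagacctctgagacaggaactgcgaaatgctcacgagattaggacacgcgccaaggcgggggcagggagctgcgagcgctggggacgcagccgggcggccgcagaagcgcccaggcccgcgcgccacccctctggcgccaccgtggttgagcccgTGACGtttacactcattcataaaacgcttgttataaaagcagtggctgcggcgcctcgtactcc
ARRDC4: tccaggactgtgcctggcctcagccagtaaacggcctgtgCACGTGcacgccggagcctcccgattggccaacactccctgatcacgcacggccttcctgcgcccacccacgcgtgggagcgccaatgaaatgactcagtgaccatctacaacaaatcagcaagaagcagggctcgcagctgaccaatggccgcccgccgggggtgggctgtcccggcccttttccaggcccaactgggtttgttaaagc

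A promoter entry was found for 125 of the 168 member genes, with 175 entries in all, since some genes have several starts. A CArG box stood in 3 of these entries (1.71%), those of EGR1, NR2F1 and DACT3, against 1.16% of 35116 promoters of the same length. TGACG on either strand stood in 25.7% of the members' entries against 21.2% of all, and CACGTG in 9.14% against 6.34%. The members' entries had a median GC content of 63.2%, and all promoters 58%. These are letter matches within 250 bases and describe the sequences only.

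Across the 171 members the mean IL-1β difference over the 4 slides had a median of -0.92, with quartiles of -1.45 and -0.63 and a range of -3.73 to -0.25. The mean Empa difference had a median of 0.52, with quartiles of 0.39 and 0.69 and a range of 0.17 to 2.73. Over all probes the medians were -0.07 and -0.01. The IL-1β difference was the larger in size in 145 members and the Empa difference in 26. In 80 members IL-1β was beyond 2-fold, whereas Empa was beyond 2-fold in 10. The rule chose the members on these values, so they are a description. At the edge of the rule, DMRTA1, C11orf65 and L3MBTL1 were just inside, with the smallest of their 8 differences at most 0.102, and UBXN2B, LCA5L and FAIM just outside, with 0.0997, 0.0995 and 0.0987.

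**Figure D1:**
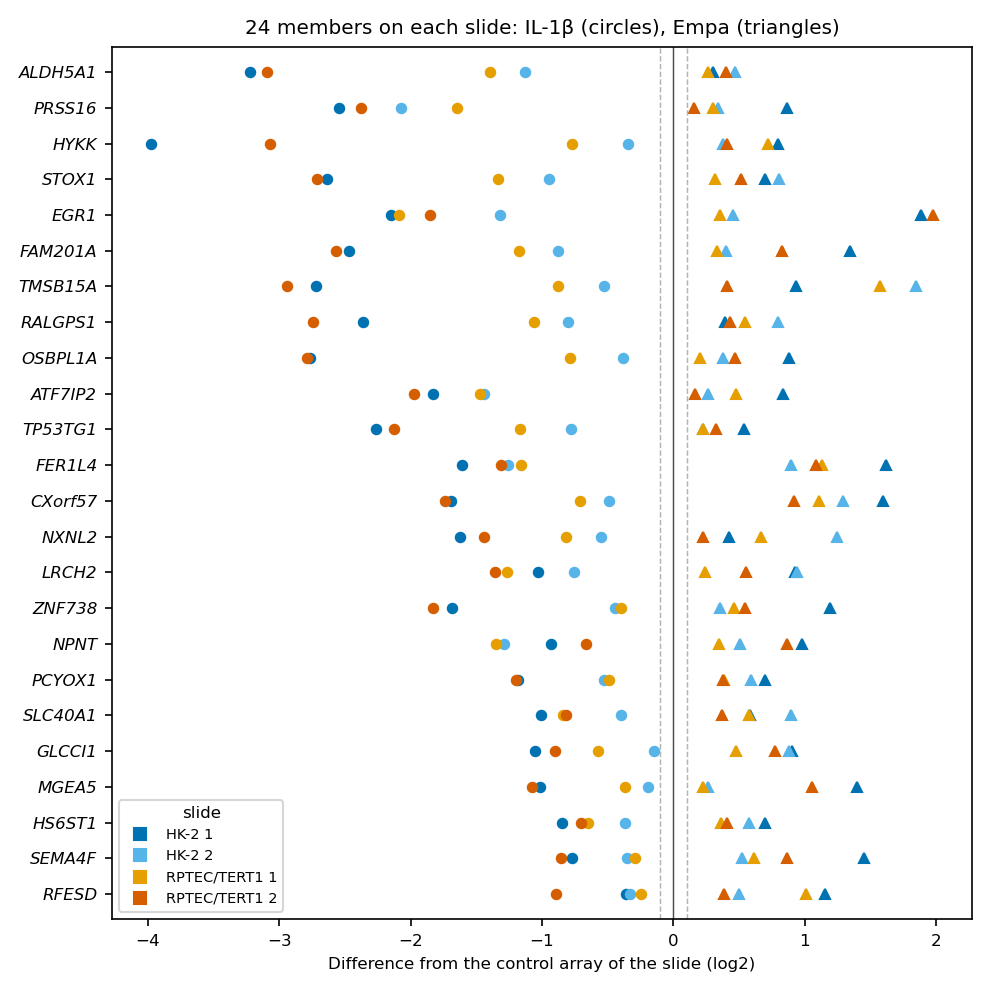
Difference from the control array of the same slide (x axis, log2) for the 24 members chosen by size among those well above background on all 12 arrays (y axis), with IL-1β as circles, Empa as triangles, 1 colour per slide and dashed lines at the rule's limits of -0.1 and 0.1. For most genes the IL-1β circles of HK-2 1 and RPTEC/TERT1 2 lie farthest to the left, while the Empa triangles mostly lie between 0.2 and 1.

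EGR1, FOS and NR4A2, transcription factors of the immediate early class, were members, though only EGR1 was bright on every array. EGR1, a zinc finger transcription factor induced within minutes by growth factors and stress, had levels in HK-2 (replicates 1 and 2) of -2.40 and -0.43 on control arrays, -4.55 and -1.75 with IL-1β, and -0.51 and 0.02 with Empa. In RPTEC/TERT1 its levels were 0.15 and -1.58 in controls, -1.94 and -3.44 with IL-1β, and 0.51 and 0.39 with Empa. On every slide IL-1β was lowest and Empa highest, but in HK-2 the control arrays lay so far apart that they overlapped with those of both treatments, whereas in RPTEC/TERT1 neither treatment overlapped with the controls. Its mean difference was -1.85 ± 0.38 (SD over 4 slides) with IL-1β and 1.17 ± 0.88 with Empa.

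FOS, a subunit of the AP-1 transcription factor, differed by -2.03 ± 0.47 with IL-1β and 0.66 ± 0.63 with Empa (n = 4 slides), but was well above background on only 4 arrays. In RPTEC/TERT1 it was measured above background on 1 of 2 control arrays and on neither IL-1β array. The control level was estimated at 3.48-fold the IL-1β level. This is no firm lower bound, because 1 of the control arrays was itself below the background mark. NR4A2, an orphan nuclear receptor of the same immediate early class, differed by -0.96 ± 0.15 and 0.94 ± 0.30 on a probe that was well above background on 2 arrays. A second NR4A2 probe, well above background on 9 arrays, had mean differences of -0.32 and -0.31, so the 2 probes of this gene disagree for Empa. The list of 29 immediate early genes they belong to was drawn up after the values were seen, and 3 of its 37 probes were members (8.11%, against 0.511% of all probes). Most of that list did not share the IL-1β direction: its median fitted difference was 0.47, and at any size 10 probes were higher and 5 lower with IL-1β on all 4 slides. Among the genes that were higher, EGR2, IER3 and FOSL1 had mean IL-1β differences of 2.05, 1.79 and 1.59.

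FER1L4 had HK-2 levels of -1.24 and -0.30 in controls, -2.85 and -1.56 with IL-1β, and 0.37 and 0.59 with Empa. In RPTEC/TERT1 its levels were -0.02 and -1.53, then -1.18 and -2.84, then 1.11 and -0.44. Its differences were of like size in both directions, -1.34 ± 0.19 with IL-1β and 1.18 ± 0.31 with Empa (n = 4 slides), and the arrays of the 3 conditions did not overlap in HK-2 but did in RPTEC/TERT1. CXorf57 differed by -1.16 ± 0.65 and 1.23 ± 0.29, and its Empa arrays lay above all control arrays of the same line in both lines. TMSB15A, a thymosin β that binds actin monomers, differed by -1.77 ± 1.24 and 1.19 ± 0.65, with a near-identical copy (TMSB15B) that the probe may also read.

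**Figure D2:**
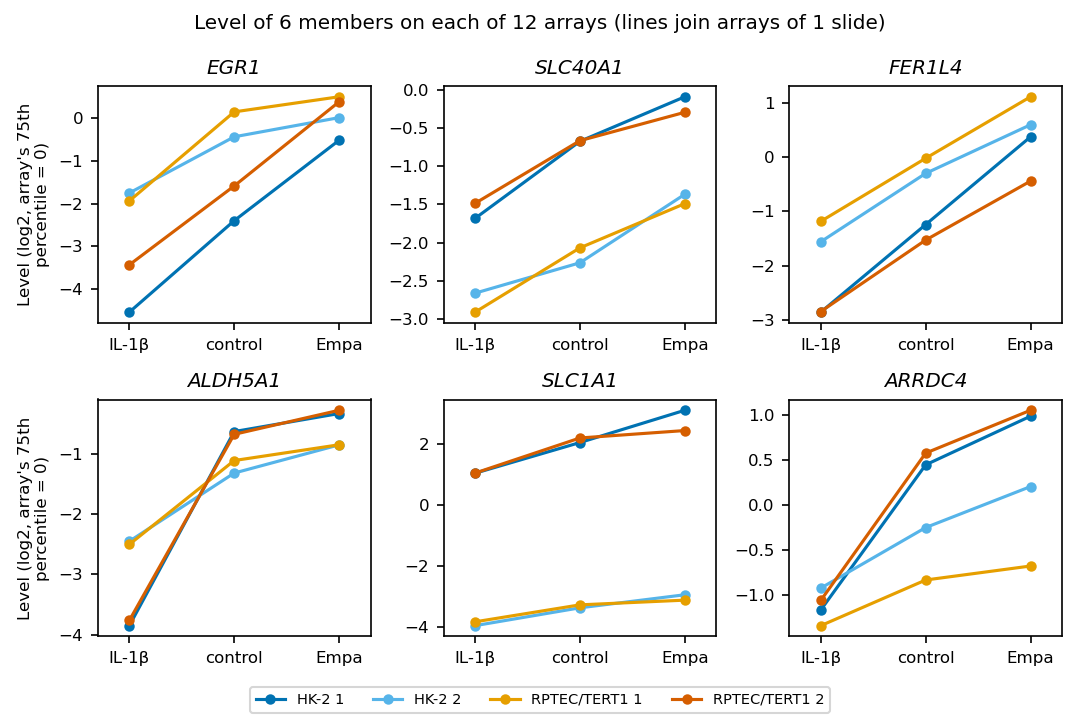
Level of 6 members (y axis, log2 with the 75th percentile of the array at 0) on the IL-1β, control and Empa array of each slide, with lines joining the 3 arrays of a slide. Every line climbs from left to right, and the slides HK-2 1 and RPTEC/TERT1 2 run close together in SLC40A1, ALDH5A1 and SLC1A1, as do HK-2 2 and RPTEC/TERT1 1.

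Solute carriers gave 4 members among 528 probes of that family (0.758%). SLC40A1 is ferroportin, the only known cellular iron exporter, through which iron leaves the basolateral side of the tubule cell. Its levels in HK-2 were -0.68 and -2.26 in controls, -1.68 and -2.66 with IL-1β, and -0.09 and -1.37 with Empa. In RPTEC/TERT1 they were -2.07 and -0.67, then -2.91 and -1.49, then -1.49 and -0.30. The differences of -0.77 ± 0.26 and 0.61 ± 0.22 were small beside the gap between the replicates of a line. SLC40A1 was printed in 10 spots on each array, and in 7 of its 8 comparisons within a slide the treated spots did not overlap the control spots.

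SLC1A1, a carrier for glutamate and aspartate in the tubular brush border, had levels of 2.06 and -3.38 in HK-2 controls and -3.28 and 2.21 in RPTEC/TERT1 controls. Its level was thus high on slides HK-2 1 and RPTEC/TERT1 2 but low on the remaining slides, and its differences were -0.83 ± 0.30 with IL-1β and 0.47 ± 0.41 with Empa. SLC38A10, a member of an amino acid transporter family, differed by -0.25 ± 0.06 and 0.38 ± 0.29. A second SLC38A10 probe, bright on every array, was lower with Empa on all 4 slides (mean -0.54) and lower with IL-1β on 2. SLC25A35, a mitochondrial carrier of uncertain substrate, differed by -1.10 ± 0.48 and 0.27 ± 0.11. No probe of the list of proximal tubule transporters and brush border genes was a member, of 46 probes, where 0.511% of all probes were. SLC1A1 was not on that list, and nothing is read from the absence.

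Metabolic members were mostly single enzymes. ALDH5A1, the mitochondrial succinic semialdehyde dehydrogenase that ends GABA breakdown, had the largest mean IL-1β difference among the members well above background on all 12 arrays, -2.21 ± 1.10, and an Empa difference of 0.36 ± 0.09. Its HK-2 levels were -0.63 and -1.32 in controls, -3.85 and -2.45 with IL-1β, and -0.33 and -0.85 with Empa. In RPTEC/TERT1 they were -1.11 and -0.67, then -2.50 and -3.77, then -0.85 and -0.28. The IL-1β arrays lay below all control arrays in both lines, while the Empa and control arrays overlapped.

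ALDH7A1, an aldehyde dehydrogenase of lysine breakdown, differed by -0.85 ± 0.53 and 0.52 ± 0.17, and a second probe of the gene had the same signs on all 4 slides. Another ALDH7A1 probe, well above background on 10 arrays, was lower with IL-1β on 3 slides and above control with Empa on 2. HYKK, the hydroxylysine kinase, also acts in lysine-related breakdown. It differed by -2.04 ± 1.76 with IL-1β and 0.58 ± 0.22 with Empa. LIPT2, which transfers the octanoyl group from which lipoate is made, differed by -0.43 ± 0.33 and 0.40 ± 0.31. RFESD, a Rieske iron-sulfur domain protein, differed by -0.46 ± 0.30 and 0.76 ± 0.38. CMC4, a small mitochondrial cysteine-motif protein printed in 10 spots, differed by -0.55 ± 0.09 and 0.45 ± 0.20. Its treated and control spots did not overlap in any of 8 comparisons. Among the 4 members printed in 10 spots, VASH2 had the fewest such comparisons, 4 of 8. Spots of an array read the same RNA and the rule used these differences, so the spot counts are a description. The lists of fatty acid oxidation (46 probes), cholesterol synthesis (28), respiratory chain (41) and amino acid breakdown genes (53) held no member. Members were 0.511% of all probes, so nothing is read from their absence on lists of this size. ALDH5A1, ALDH7A1 and HYKK were not on the amino acid list.

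ARRDC4, an α-arrestin that restrains glucose uptake and is a target of the glucose-sensing factor MondoA, had HK-2 levels of 0.44 and -0.25 in controls, -1.17 and -0.93 with IL-1β, and 0.99 and 0.20 with Empa. In RPTEC/TERT1 the levels were -0.84 and 0.58, then -1.35 and -1.07, then -0.68 and 1.05. The IL-1β arrays lay below both control arrays in each line, and the Empa arrays overlapped the controls. The differences were -1.11 ± 0.60 and 0.41 ± 0.17. TXNIP, the related α-arrestin under the same factor, differed by -2.98 with IL-1β and 0.38 with Empa on average, but on the slide of RPTEC/TERT1 replicate 1 its Empa difference was -0.33, so it was no member. ARRDC4 was the sole member among 47 probes of the glucose handling and MondoA list.

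Lipid transfer and membrane contact were represented by OSBPL1A and ESYT3. OSBPL1A, an oxysterol-binding protein of late endosomes, differed by -1.68 ± 1.28 and 0.48 ± 0.29, and its spots did not overlap in 5 of 8 comparisons. The other OSBPL1A probe, well above background on 6 arrays, had means of 0.08 with IL-1β and -0.23 with Empa. ESYT3, an extended synaptotagmin that tethers the endoplasmic reticulum to the plasma membrane, was a member through 2 probes, the brighter of which differed by -1.94 ± 1.04 and 0.31 ± 0.12. ZDHHC11, a palmitoyltransferase, was likewise a member through 2 probes, with -1.83 ± 1.05 and 0.90 ± 0.12 on the brighter, and its near-identical neighbour ZDHHC11B may share the signal.

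Lysosomal, endosomal and secretory pathway proteins formed a group of 6, put together like the following groups after the values were seen, and all 6 were bright on every array. PCYOX1, the lysosomal prenylcysteine oxidase, had levels of 2.75 and 1.79 in HK-2 controls, 1.57 and 1.26 with IL-1β, and 3.45 and 2.38 with Empa. In RPTEC/TERT1 they were 1.84 and 2.84, then 1.35 and 1.64, then 2.23 and 3.22. All IL-1β arrays lay below the control arrays of their line. The other PCYOX1 probe, also bright on every array, had means of -0.77 with IL-1β and 0.17 with Empa. On HK-2 1 its Empa difference was -0.51. PRSS16, a serine protease of the endosomal and lysosomal compartments, differed by -2.16 ± 0.39 and 0.42 ± 0.31. BACE1, the β-secretase, had the smallest spread of the group for IL-1β, -1.03 ± 0.08, with 0.38 ± 0.19 for Empa. The other BACE1 probe, well above background on 11 arrays, had means of -1.32 with IL-1β and -0.21 with Empa. With Empa it was above control on 3 slides and at -1.50 on HK-2 1. SORT1 (sortilin, a sorting receptor) differed by -0.72 ± 0.31 and 0.48 ± 0.23, PRCP (prolylcarboxypeptidase, which cleaves angiotensins) by -0.60 ± 0.26 and 0.40 ± 0.19, and AGA (aspartylglucosaminidase) by -0.38 ± 0.21 and 0.43 ± 0.19.

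Glycan enzymes were a group of 5. HS6ST1, which adds 6-O-sulfate to heparan sulfate, differed by -0.64 ± 0.20 with IL-1β and 0.51 ± 0.16 with Empa. MGEA5 is the O-GlcNAcase that removes N-acetylglucosamine from nuclear and cytosolic proteins. It differed by -0.66 ± 0.45 and 0.73 ± 0.58, and its Empa arrays lay above all control arrays in both lines. The other MGEA5 probe, also bright on every array, had means of -0.55 and 0.67. Its difference was 0.35 with IL-1β on HK-2 2 and -0.18 with Empa on RPTEC/TERT1 1. MGAT4A, GXYLT2 and B4GAT1, which act on N-glycans, Notch O-glucose and dystroglycan, had IL-1β differences between -0.82 and -0.44 and Empa differences between 0.31 and 0.65.

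Adhesion and matrix members were NPNT, ITGA6, SEMA4F, COL5A2 and ANTXR1. NPNT (nephronectin) is a basement membrane ligand of integrin α8β1 that kidney development needs. Its levels were 0.94 and 1.70 in HK-2 controls, 0.01 and 0.41 with IL-1β, and 1.92 and 2.21 with Empa, and in RPTEC/TERT1 1.77 and 0.48, then 0.42 and -0.19, then 2.12 and 1.35. The IL-1β arrays lay below both controls in each line, and the Empa arrays lay above both controls in HK-2 but not in RPTEC/TERT1. ITGA6, the laminin receptor subunit α6, differed by -1.58 ± 0.53 and 0.56 ± 0.23. The other ITGA6 probe, well above background on 8 arrays, had means of -1.29 and 0.67. On HK-2 1 it went the other way, at 0.58 with IL-1β and -0.61 with Empa. SEMA4F, a semaphorin, was the only one of the 5 whose IL-1β and Empa arrays were both clear of the control arrays in both lines, at -0.57 ± 0.28 and 0.86 ± 0.42. The other SEMA4F probe, also bright on every array, had means of only -0.10 and 0.14. On HK-2 1 its Empa difference was -1.21, so the 2 probes disagree there. COL5A2, a chain of type V collagen, varied most between slides, with -1.98 ± 2.10 for IL-1β.

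By count, zinc finger genes gave more members than any other gene list used here. They were 14 of 793 probes with a ZNF, ZKSCAN or ZSCAN symbol (1.77%, against 0.511% of all probes). By share some shorter lists stood higher, such as the glucose handling and MondoA list at 2.13% with 1 member. Most proteins with a ZNF, ZKSCAN or ZSCAN symbol pair zinc fingers with a KRAB domain and silence transposable elements and other genes. The 14 members had IL-1β differences between -1.09 and -0.25 and Empa differences between 0.19 and 0.80, and 10 of them were bright on every array. ZNF738 had the largest IL-1β difference, -1.09 ± 0.77, with 0.64 ± 0.38 for Empa. ZNF397 had the largest Empa difference, 0.80 ± 0.58, with -0.66 ± 0.24 for IL-1β. Its other probe, bright on every array where the member probe was on 11, had means of -1.17 with IL-1β and -0.24 with Empa. Of 10 bright other probes of the zinc finger members, all 10 had an IL-1β mean below 0, while the Empa mean was above 0 in 6 and below 0 in 4. The others were ZNF224, ZNF256, ZNF287, ZNF37BP, ZNF439, ZNF484, ZNF615, ZNF658, ZNF709, ZNF782, ZNF788 and ZNF880. Such genes arose by duplication and are alike in sequence, so a probe may read more than 1 of them.

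Over the whole zinc finger list, members or not, 256 of 793 probes (32.3%) were lower with IL-1β on all 4 slides at any size, against 17.2% of all probes. For Empa, 114 (14.4%) were higher on all 4 slides, against 8.20%. The list was brighter than the array, with 610 of 793 probes passing the filter for tests against 19664 of 33483. Of all probes well above background on all 12 arrays, 24.97% were lower with IL-1β and 12.37% higher with Empa. Against these the zinc finger excess was smaller, and for Empa slight. The part of brightness in it was not tested. The median fitted difference of the 610 tested probes was -0.31 with IL-1β and 0.07 with Empa, against -0.11 and -0.04 over all 19664 tested probes. With the replicate block, 15 of the 610 passed for IL-1β as lower (2.46%, against 2.99% of all tested probes).

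**Figure D3:**
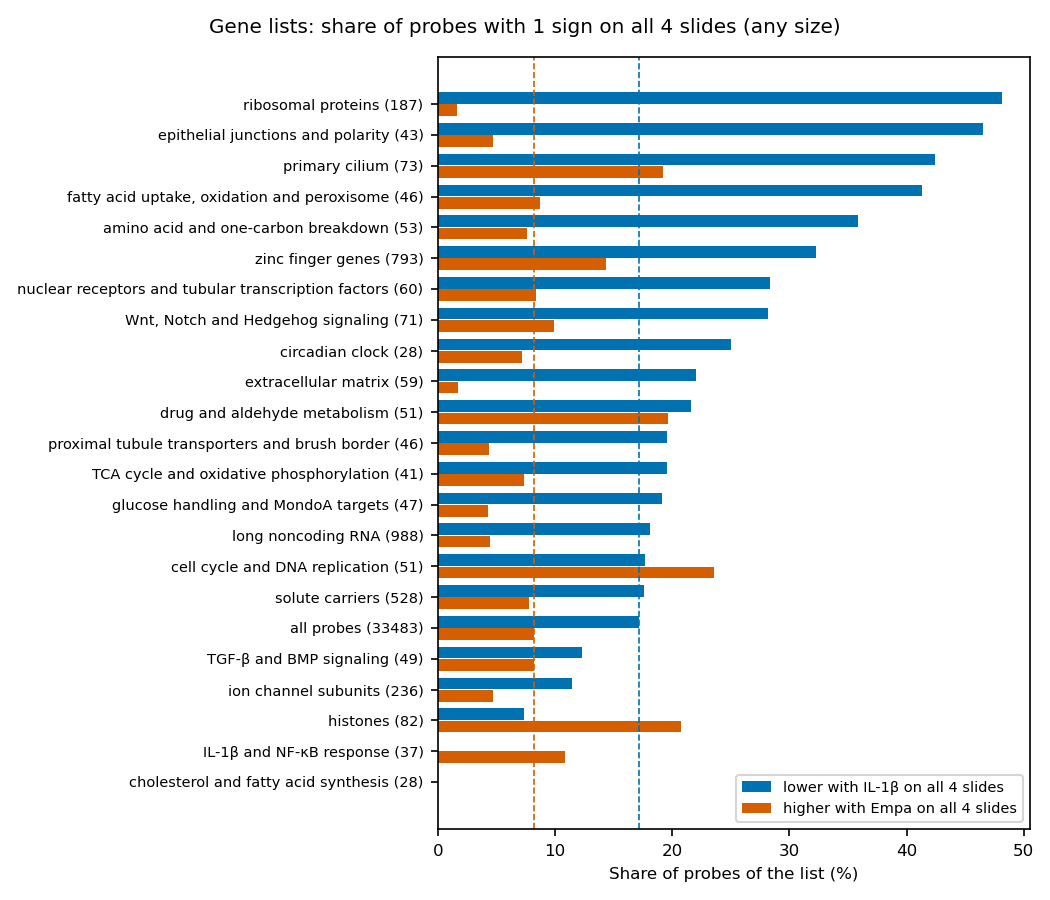
Share of the probes of each gene list (y axis, number of probes in parentheses) that were lower with IL-1β (blue) or higher with Empa (orange) on all 4 slides at any size, in percent (x axis), with dashed lines at the shares over all probes, 17.2% and 8.20%. The cilium, zinc finger, drug and aldehyde, fatty acid, Wnt, cell cycle and nuclear receptor lists exceed both lines, some by little, while ribosomal protein genes exceed the IL-1β line and fall short of the Empa line.

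Genes of the cilium, the centrosome and microtubules were a group of 12. BBS9, a subunit of the BBSome that carries cargo to the cilium, differed by -0.54 ± 0.25 and 0.50 ± 0.26. SPATA7, of the ciliary transition zone, differed by -0.92 ± 0.47 and 0.34 ± 0.12, and a second probe of it had the same signs on all 4 slides. CEP131, of the centriolar satellites, differed by -0.70 ± 0.37 and 0.50 ± 0.33. KIZ, LRRCC1, HAUS5 and PDE4DIP belong to centrosome or spindle, and their IL-1β differences lay between -1.17 and -0.80. The microtubule plus-end proteins MAPRE2 and SLAIN1 differed by -0.72 ± 0.22 and -0.41 ± 0.20 with IL-1β, and by 0.54 ± 0.32 and 0.43 ± 0.12 with Empa. SPAG16, TBC1D32 and CCDC114 serve motile or signaling cilia, and the last of them was well above background on 1 array. The other CCDC114 probe, well above background on 6 arrays, went the other way, higher with IL-1β on all 4 slides (mean 1.27).

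The list of primary cilium genes, drawn up by function, held 73 probes, of which 1 (BBS9) was a member. At any size, 31 of its probes (42.5%) were lower with IL-1β on all 4 slides and 14 (19.2%) were higher with Empa, against 17.2% and 8.20% of all probes. This list too was brighter than the array, with 58 of 73 probes passing the filter for tests. Of all probes well above background on all 12 arrays, 24.97% were lower with IL-1β and 12.37% higher with Empa. The part of brightness was not tested. Its median fitted difference was -0.45 with IL-1β and 0.09 with Empa. With the replicate block 3 of its 58 tested probes passed as lower with IL-1β, and none passed as higher with Empa. By contrast, 48.1% of ribosomal protein probes were lower with IL-1β on all slides but 1.60% were higher with Empa, and that list held no member. The list of cell cycle and DNA replication genes had 23.5% of 51 probes higher with Empa and 1 member, CDT1, the replication licensing factor. With IL-1β, 13 probes of that list were higher and 9 lower on all 4 slides. CDT1 differed by -0.74 ± 0.59 and 0.42 ± 0.24, and its control levels were -3.00 and 2.33 in HK-2 and 2.38 and -2.82 in RPTEC/TERT1.

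Further transcription and chromatin factors among the members were STOX1, ATF7IP2, NR2F1, L3MBTL1, ETV1, DMRTA1, PHF20L1 and TFAP2A. STOX1, a winged-helix factor, differed by -1.91 ± 0.90 and 0.58 ± 0.21. NR2F1 (COUP-TFI), an orphan nuclear receptor, differed by -1.60 ± 1.05 and 0.80 ± 0.55, and on it both treatments were clear of the controls in both lines. ATF7IP2, a relative of a cofactor of H3K9 methylation, differed by -1.68 ± 0.26 and 0.43 ± 0.30. TFAP2A was not well above background on any array.

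Noncoding transcripts took 6 of the 171 probes by symbol, beside FER1L4 and FAM201A. The brighter NDUFA6-AS1 probe differed by -0.73 ± 0.27 and 0.35 ± 0.15, and the overlapping one by -0.89 ± 0.33 and 0.36 ± 0.27. TP53TG1, a noncoding transcript linked to the p53 response, differed by -1.58 ± 0.73 and 0.33 ± 0.15. The other TP53TG1 probe, also bright on every array, had means of -1.54 and 0.23, but -0.13 with Empa on HK-2 1. FAM201A differed by -1.77 ± 0.87 and 0.73 ± 0.47. ATE1-AS1, LINC01124 and CEBPB-AS1 were well above background on 4, 3 and 3 arrays. The family of 988 such probes held members at 0.607%, close to the 0.511% of all probes.

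Other members of the leading set were RALGPS1, an exchange factor for Ral GTPases (-1.74 ± 0.95 and 0.54 ± 0.18), and GLCCI1, a glucocorticoid-induced transcript expressed in podocytes (-0.67 ± 0.40 and 0.76 ± 0.20). The other RALGPS1 probe, well above background on 8 arrays, had means of -2.03 with IL-1β and -0.34 with Empa. LRCH2, a leucine-rich repeat scaffold, differed by -1.10 ± 0.27 and 0.66 ± 0.33, and NXNL2, a thioredoxin-like protein known from photoreceptors, by -1.11 ± 0.51 and 0.64 ± 0.44. The other NXNL2 probe, well above background on 6 arrays, had means of -1.59 with IL-1β and -0.18 with Empa. The extremes over all members, chosen after their values were seen, were less well measured. ENPP5, a membrane phosphodiesterase family member, had the lowest IL-1β mean, -3.73 ± 2.10, and was well above background on 10 arrays. DHRS2, a mitochondrial short-chain dehydrogenase, had the highest Empa mean, 2.73 ± 0.63, and was well above background on 7 arrays. No IL-1β and NF-κB response, extracellular matrix, TGF-β, junction, circadian clock, ion channel, ribosomal protein or histone probe of the lists was a member. Members were 0.511% of all probes, and nothing is read from these absences.

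Within both lines, IL-1β arrays lay below all control arrays in 63 of the 171 members, where 5.15% of all probes did so. Empa arrays lay above all control arrays in 28, where 1.36% of all probes did so. The rule used these contrasts and nothing is read from the counts. Of 155 members that passed the brightness filter, 0 passed the limma test for lower with IL-1β without the replicate block, where 0.0153% of tested probes passed, and 32 passed with it, where 2.99% did. For Empa no probe of 19664 passed as higher (0.0% of tested probes) either way, against 95 at an unadjusted p under 0.05 without the block.

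The size of the response on each slide was not fixed by the rule. The members' median IL-1β difference was -1.14 on HK-2 replicate 1, -0.53 on HK-2 replicate 2, -0.60 on RPTEC/TERT1 replicate 1 and -1.18 on RPTEC/TERT1 replicate 2. Their median Empa difference was 0.80, 0.39, 0.35 and 0.41 in the same order. Of the 105 members well above background on all 12 arrays, 44 had their largest IL-1β difference on HK-2 replicate 1 and 50 on RPTEC/TERT1 replicate 2, and 69 had their largest Empa difference on HK-2 replicate 1. Over these 105 members, the IL-1β differences on slides HK-2 1 and RPTEC/TERT1 2 had a correlation of 0.940, and those on HK-2 2 and RPTEC/TERT1 1 one of 0.743, while every other pair of slides lay between 0.388 and 0.516. For Empa the same pairs correlated at 0.530 and 0.655, and the others between -0.02 and 0.23. The points of a pair are the same genes on arrays whose controls are alike, and all of them passed the rule.

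**Figure D4:**
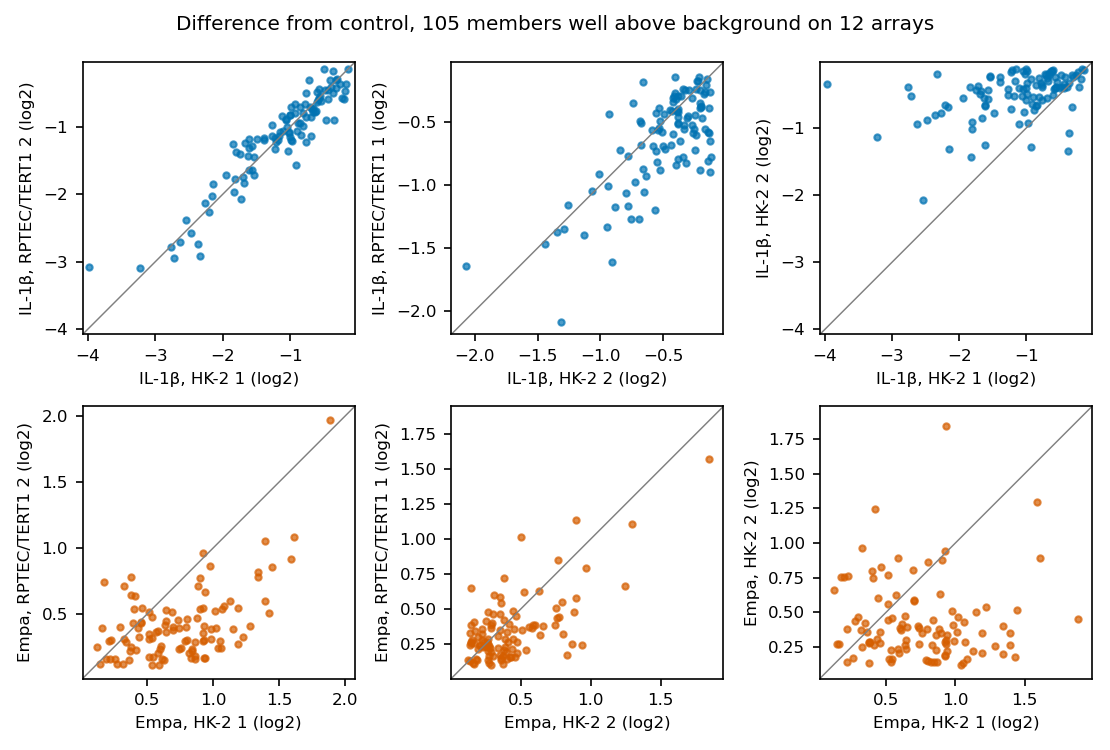
Difference from control (log2) on 1 slide against another for 105 members well above background on all 12 arrays, IL-1β in blue and Empa in orange, with the diagonal as a line. Points of HK-2 1 against RPTEC/TERT1 2 follow the diagonal for IL-1β (r = 0.940), and points of HK-2 1 against HK-2 2 do so least for Empa (r = -0.02).

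The untreated level, which the rule does not use by itself, showed the same division. The 105 members had a median control level of -0.55 on HK-2 1 and -0.57 on RPTEC/TERT1 2, but -1.07 on HK-2 2 and -0.97 on RPTEC/TERT1 1. For bright probes as a whole these medians lay between -0.24 and -0.14. The slides with the larger median IL-1β differences were those with the higher median control level. Single members could go the other way. TMSB15A had control levels of -1.15 on HK-2 1 and -0.68 on RPTEC/TERT1 2, with IL-1β differences of -2.72 and -2.94. On HK-2 2 and RPTEC/TERT1 1 its control levels were 0.89 and 0.75, with -0.53 and -0.88. The control array is part of both the level and the difference, and its part was not tested.

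Between the lines as labelled, no probe differed in control arrays in the limma test at an adjusted p under 0.05 (0.0% of 19664), and 198 (1.01%) did at an unadjusted p under 0.05, none of them a member. The IL-1β effect differed between the lines at an unadjusted p under 0.05 for 45 probes (0.229%) and the Empa effect for 40 (0.203%), again with no member and none after adjustment. With the replicate block these counts were 348 (1.77%) and 201 (1.02%), with no member and none after adjustment. With 2 arrays a group and replicates of a line so unlike, a p that misses the threshold does not show that the lines respond alike.

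Other probes of the member genes give a second reading of the same RNA. There were 95 of them for 70 genes, and 38 (40%) were lower with IL-1β on all 4 slides at any size, against 17.2% of all probes. For Empa 13 (13.7%) were higher on all 4 slides, against 8.20%, and 7 (7.37%) held both signs, against 1.22%. Of the 42 well above background on all 12 arrays, 26 were lower with IL-1β, 11 higher with Empa and 7 both (16.7%, against 2.01% of all such probes). Of these 42, 40 had an IL-1β mean below 0, while the Empa mean was above 0 in 30 and below 0 in 12, and 3 lay below control with Empa on all 4 slides. The 7 with both signs belonged to ALDH7A1, PDE4DIP, SPATA7, TMEM8B, TMX4, ZNF615 and ZNF658. These probes read the RNA of the contrast that chose the members, so the shares are a description.

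Of the members, 105 (61.4%) were well above background on all 12 arrays, against 45.8% of all probes. A further 62 were so on some arrays and 4 on none, and no member was saturated. Their probes had a median GC content of 40%, against 43.3% over all probes and 45% over the 120 probes with the reverse pattern. Chromosome 2 held 21 members (12.3%, against 7.03% of all probes) and chromosome 9 held 14 (8.19%, against 4.51%). Their median row on the array was 228, and that of all probes 267. The part of probe composition and of position in the differences was not tested.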

How the data were processed

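Cy3-labelled RNA of each culture was hybridized to its own Agilent Human GE 4x44K array, and the deposited spot intensity is the signal that Feature Extraction 9.5.3.1 had subtracted for background and detrended, per the file headers, with the software's 0 or 1 marks for spots well above background, saturated or outlying. The authors also deposited a log2 table of the same arrays, which its name calls quantile-normalized. Its values share 1 distribution within a slide and not across slides, the background step is not stated, and it served as an alternative. Here, control spots and outlier spots were left out, each intensity was divided by the 75th percentile of its array, floored at 1 signal unit and put on the log2 scale, and spots of a probe were averaged. That left 33483 probes with a value on every array. Because of the scaling, a change of total RNA cannot be seen, and values near background depend on the floor. With 2 arrays a group, the number of arrays limits the precision.

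Members, gene lists and role groups were chosen with earlier results of these data known. Tests used limma 3.58.1 in R 4.3.3 on the 19664 probes marked well above background in both replicates of 1 or more groups, over 6 groups of line and treatment, with Benjamini-Hochberg adjustment over all tested probes and a threshold of 0.05. For the contrasts that chose the members, limma counts are given as background only, and nothing is supported with them. The genes named were, among members with a symbol that were well above background on all 12 arrays, the 12 with the largest smallest difference, then 6 with the lowest IL-1β and 6 with the highest Empa mean, then genes with 2 or more member probes, list members, and 3 on each side of the threshold. Of a gene with several member probes the brightest is given. One list member is not reported here. There were 22 gene lists by function or symbol, and the immediate early list was added later. Where a group was below background, a fold is the mean of the brighter group over the mean of, per array, the dimmest signal so marked or the probe's own if higher. Slide pairs the replicate numbers: deviations from the group means correlated at 0.592 to 0.906 between arrays of a slide. Annotation of the array design is on hg19, promoters are RefSeq's on GRCh38.p14, and nothing was converted between them. Other normalizations, filters, limits of the rule and omitted arrays or slides were tried. The fitting script was tested on simulated data. Python 3.11.15, pandas 2.3.3, numpy 2.4.6 and matplotlib 3.10.9 were used.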

Additional observations from a re-analysis of the deposited data

How the results depend on the processing

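The number of members was 93 with normexp background correction and quantile normalization, 92 in the authors' table, 105 among probes well above background on all 12 arrays, 409 at any size of the differences, 83 beyond 0.2, and 1500 with no replicate block, that is, from the means of the replicates of a line. Leaving out a slide gave 291 to 425 probes, the most without HK-2 replicate 2. Of the 171 members, 123 were shared with quantile normalization, 63 with normexp, 60 with the authors' table and 147 with median centring. Of 110 mean differences of named genes, 53 moved by more than their SD over slides in the authors' table, 44 with normexp, 6 with quantile normalization and 1 with median centring, and 0 reversed in these 4 settings.

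Probes lower with IL-1β by limma numbered 3 without and 587 with the replicate block, and 1436 with the slide as replicate block and 1 effect per treatment. They numbered 0 in the authors' table, 6 with a floor of 5 signal units, 18 with no filter on dim probes, and 0 among probes well above background on all 12 arrays. Leaving out 1 array gave 0 to 3. Probes higher with Empa numbered 0, but 1 with the slide as replicate block and 1 effect per treatment and 2 with no filter on dim probes. With no filter, 8 probes differed between the lines in control arrays, 8 in the IL-1β effect and 2 in the Empa effect. A replicate block could not be fitted for the control arrays, since each slide holds 1 line. Some 30 members were well above background on fewer than 7 arrays, and for these the differences are least certain.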
